A study of Mus musculus with 47 samples.

Results

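Medullary thymic epithelial cells with high surface MHC class II (mTEChi) from newborn mice lacking both Aire and EED (AireEEDdKO) were compared with the same fraction from control mice (Ctrl), to ask which genes that are lost without Aire return to the control level once EED is lost as well, and which stay off. The libraries were chosen by their titles, and 8 of the 47 libraries of the series entered the comparison, 3 of AireEEDdKO and 5 of Ctrl. The question also needed the 3 neonatal mTEChi libraries of AireKO, which define what is lost without Aire. The AireEEDdKO libraries came from pooled sexes at 4 days, a male at 6 days and a male at 4 days, and the AireKO libraries had the same sexes and ages. Ctrl replicates 1 and 2 were males of 6 days, replicates 3 and 4 a female and a male of 2 to 3 days, and replicate 5 pooled sexes of 1 day. EEDcKO mice lacked EED alone. Their mTEChi libraries were a female of 6 days and pooled sexes of 2 to 3 days and of 1 day. All mice were C57BL/6. AireKO mice carried the Aire deletion in every tissue, whereas EED was deleted from a floxed allele by Foxn1-Cre, which acts in thymic epithelium, and AireEEDdKO combined both. The Eed allele and Cre status of Ctrl and AireKO mice are not given in the sources used here. Cells were sorted as DAPI-negative, CD45-negative, EpCAM-positive, Ly51-negative cells, so each library is a bulk of the cell types in that gate, in which fewer cells of a type and less RNA per cell cannot be told apart.

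Aire is a transcriptional regulator through which mature mTECs express a wide range of genes of other tissues, so that developing T cells meet those antigens in the thymus. EED is the subunit of Polycomb repressive complex 2 (PRC2) that the complex needs to place the trimethyl mark on lysine 27 of histone H3, a mark of silenced genes that in many tissues covers developmental regulators with CG-rich promoters. Medullary epithelium also contains mimetic cells, which resemble the differentiated cells of other organs such as tuft, ciliated, muscle or gut cells.

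Promoters of 2 Aire-lost genes that stayed off and 2 that came back are shown because CG-rich sequence is the feature through which PRC2 targets are usually described. Each is the RefSeq window of 300 bases on GRCm38.p6, from 250 bases before to 50 after the RefSeq start of the gene. It is written 5′ to 3′ on the strand of the gene. The starts of the counted genes differ, so the Csn1s2a and Tns1 windows lie wholly upstream of them (87774567 and 74124449). Capitals mark each CG, which reads the same on both strands.
Sst (stayed off; chr16:23890795-23891094, minus strand): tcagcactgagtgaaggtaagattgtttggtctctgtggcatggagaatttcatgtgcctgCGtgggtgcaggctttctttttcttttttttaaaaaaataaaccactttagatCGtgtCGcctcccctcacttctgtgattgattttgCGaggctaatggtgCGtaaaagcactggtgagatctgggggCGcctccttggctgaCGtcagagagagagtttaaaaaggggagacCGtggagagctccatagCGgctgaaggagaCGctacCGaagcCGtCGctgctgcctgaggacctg
Csn1s2a (stayed off; chr5:87774200-87774499, plus strand): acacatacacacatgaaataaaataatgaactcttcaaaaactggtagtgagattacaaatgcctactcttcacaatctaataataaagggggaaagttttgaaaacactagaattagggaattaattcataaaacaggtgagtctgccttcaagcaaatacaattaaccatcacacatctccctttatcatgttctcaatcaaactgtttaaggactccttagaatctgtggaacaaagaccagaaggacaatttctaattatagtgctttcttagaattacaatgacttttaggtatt
Tns1 (back to control level; chr1:74124499-74124798, minus strand): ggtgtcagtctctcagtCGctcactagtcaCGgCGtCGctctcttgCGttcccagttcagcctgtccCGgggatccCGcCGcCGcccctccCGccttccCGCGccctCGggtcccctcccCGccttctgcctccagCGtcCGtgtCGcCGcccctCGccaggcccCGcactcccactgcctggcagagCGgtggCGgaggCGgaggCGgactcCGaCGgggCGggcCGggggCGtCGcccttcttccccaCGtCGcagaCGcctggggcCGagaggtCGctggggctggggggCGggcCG
Dpp6 (back to control level; chr5:26817107-26817406, plus strand): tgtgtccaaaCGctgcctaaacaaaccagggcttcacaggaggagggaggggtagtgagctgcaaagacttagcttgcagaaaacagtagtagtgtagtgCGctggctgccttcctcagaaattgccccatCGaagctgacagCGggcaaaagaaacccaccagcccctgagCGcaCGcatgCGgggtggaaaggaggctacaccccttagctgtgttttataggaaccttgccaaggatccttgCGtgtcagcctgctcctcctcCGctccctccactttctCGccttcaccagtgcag
The windows held 13 CG in Sst, 0 in Csn1s2a, 37 in Tns1 and 10 in Dpp6. Over all 27025 RefSeq windows the median was 7, and 94.2% held at least 1. A comparison of CG content between the gene classes is void, since a window was matched for 805 of 1113 genes that stayed off (72.3%) and for 94 of 136 that came back (69.1%), under the 80% that such a check needs.

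The labelled cell type was checked first. All 7 epithelial markers were detected, and their summed level was 1676 to 2039 CPM (a gene's count scaled to a common effective library total) in Ctrl and 1858 to 2087 CPM in AireEEDdKO, with 0 of 7 called in either direction. Of 16 genes of mature mTECs (the MHC class II genes, Ciita, Cd80, Cd86, Relb, Fezf2 and others), 0 were called. Several of them were higher by less than 2-fold, among them Relb, a subunit of the noncanonical NF-κB pathway, with 141 to 183 CPM in Ctrl and 238 to 380 CPM in AireEEDdKO. Total counts ran from 1676830 to 4025158 in Ctrl, 1646162 to 3695066 in AireKO and 1914240 to 3133603 in AireEEDdKO. The neonatal mTEChi libraries formed 2 sets of depth. Ctrl, AireKO and AireEEDdKO each had replicates 1 and 2 below 2000000 counts, and their other replicates above. In Ctrl the replicates below were of 6 days and those above of 1 to 3 days, so depth and Ctrl age cannot be told apart.

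Of 20196 genes tested, 3396 were called in AireEEDdKO against Ctrl (16.8%), 1389 higher (6.88%) and 2007 lower (9.94%). Calls needed a change of at least 2-fold and an adjusted p under 0.05 in edgeR's quasi-likelihood test. At an unadjusted p under 0.05 the count was 8244. With library size alone as the scaling, the all-gene median shifted by −0.177 on the log2 scale and the calls split into 891 higher and 2433 lower. Within the libraries below 2000000 counts 3141 genes were called, and within those above 2312, where AireEEDdKO and AireKO have 1 library each, assumed to vary like the other groups. Because all libraries were fitted together, p-values measure the spread between these libraries, and nothing in the labels says whether all came from separate litters.

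Genes lost without Aire were defined at both ages. In adult mTEChi, 3428 genes were called lower in AireKO than in WT (17.8% of those tested, where 5.63% were called higher), and 3233 of them were tested in the newborns. All 4 adult AireKO libraries had 0 mitochondrial counts, against 8184 to 9521 in the 7 WT libraries, so genotype and this difference between libraries cannot be told apart in the adult set. The AireKO libraries were also all of males, at 5 or 6 weeks, and the WT libraries of both sexes at 4 or 5 weeks. Of the 3233 genes, 1358 were called lower (42.0%) and 153 higher (4.73%) in AireEEDdKO against Ctrl, and 1722 were not called. Their median log2 fold change was −1.05, beside 0.04 over all genes tested. The adult Aire-lost genes made up 67.7% of the 2007 genes lower in AireEEDdKO and 11.0% of the 1389 higher ones.

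In neonatal mTEChi, AireKO against Ctrl gave 2593 lower genes (12.8%) and 718 higher ones (3.56%), or 3084 and 357 with library size alone. The 1896 genes lower at both ages were sorted by how AireEEDdKO compared with Ctrl and with AireKO. Stayed off means called lower than Ctrl and not called higher than AireKO. It sets no interval against AireKO, so it can hold genes that rose from AireKO without a call. Npy, with a log2 change of 3.14 against AireKO (edgeR adjusted p = 0.0716), is an example. Partly back means called lower than Ctrl and higher than AireKO. Back to control level means called higher than AireKO, not called against Ctrl, and with the 95% interval of the change against Ctrl inside 2-fold. Above control means called higher than both. The 3 comparisons share libraries, so the classes are a sorting of calls and not independent tests of one another.

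Of the 1896 genes, 1113 stayed off (58.7%), 38 were partly back (2.00%), 136 were back to control level (7.17%), 33 were above control (1.74%) and 576 could not be placed (30.4%). The number that stayed off was 590 without the genes that differed between adult library kinds, and 639 with the Ctrl libraries of 6 days only. The kinds were adult mTEClo AireKO libraries with mitochondrial counts, of 5 weeks, and without, of 6 weeks. A gene differed if its mean CPM was at least 2-fold apart between them, with no test and no floor on counts. For comparison, AireEEDdKO against AireKO called 1352 of all genes higher (6.69%) and 561 lower (2.78%). The summed level of the 1113 genes that stayed off was 18072 to 19230 CPM in the Ctrl libraries, 2674 to 3091 in AireKO and 2905 to 3210 in AireEEDdKO. The class definition fixes the order of these sums. The summed level of the 136 genes back to control level was 3288 to 3849 CPM in Ctrl, 1010 to 1278 in AireKO and 3532 to 3768 in AireEEDdKO. These sums describe the classes and, since the same libraries defined them, support nothing further. The 33 genes above control summed to 589 to 763 CPM in Ctrl, 171 to 273 in AireKO and 1868 to 3041 in AireEEDdKO.

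**Figure D1:**
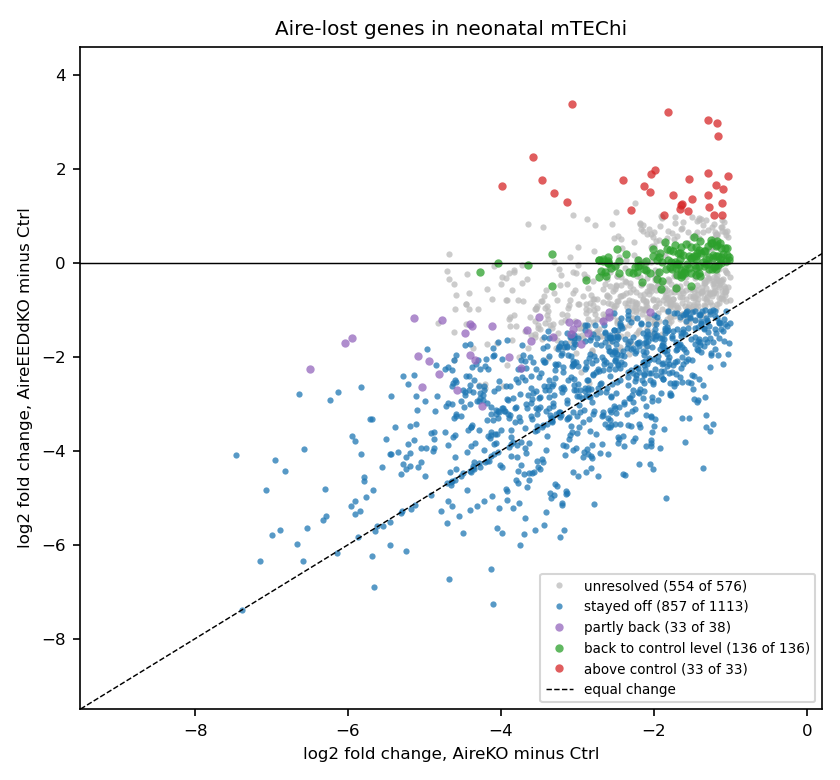
Log2 fold change of AireEEDdKO against Ctrl (vertical axis) and of AireKO against Ctrl (horizontal axis) for the Aire-lost genes of neonatal mTEChi. Each point is 1 of 1613 genes, coloured by class, the dashed line marks equal change, and 283 genes with 0 counts in a mutant group are left out. Genes that stayed off follow the dashed line, and genes back to control level lie along the line at 0.

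The 1113 genes that stayed off had a median log2 fold change of −3.17 in AireEEDdKO and −3.44 in AireKO, both against Ctrl, and 0.08 between the mutants. With the genes at 0 counts in AireEEDdKO set to their lower bound, the median against Ctrl was −3.05. In all, 170 of the 1113 had 0 counts in every AireEEDdKO library, and 104 of these had 0 counts in every AireKO library too. A count of 0 over the 3 AireEEDdKO libraries allows up to 3 counts, or 0.458 CPM, which covers counting error only.

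The genes of this class with the largest fitted falls had 0 counts in AireEEDdKO, so their folds are lower bounds. Sst, which encodes the peptide hormone somatostatin, had 29.3, 42.7, 22.3, 29.0 and 38.4 CPM in the 5 Ctrl libraries and 0 counts in all 3 AireKO and all 3 AireEEDdKO libraries. It was at least 70.6-fold lower in AireEEDdKO than in Ctrl (edgeR adjusted p = 2.86e-06). Csn1s2a, a casein of milk, had 28.1, 34.1, 35.5, 28.0 and 31.1 CPM in Ctrl and 0 counts in every library of both mutants, at least 68.4-fold lower in AireEEDdKO (edgeR adjusted p = 0.000386). Both genes were present in every Ctrl library and absent from every mutant library at this depth. Cyp1a2, a cytochrome P450 of liver, was also at 0 counts in the 6 mutant libraries and had 21.5 to 41.8 CPM in Ctrl, at least 65.7-fold higher than in AireEEDdKO. Fgg, the gamma chain of fibrinogen, had 21.1 to 31.9 CPM in Ctrl, 1 count over AireKO and 0 in AireEEDdKO, at least 61.6-fold lower.

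Bpifb3, of the family of BPI fold proteins, was at least 53.9-fold lower in AireEEDdKO than in Ctrl, Reg3b, a gut lectin that binds bacteria, at least 54.3-fold, A2m, a plasma protease inhibitor, at least 50.2-fold, and Tectb, a protein of the tectorial membrane of the inner ear, at least 49.4-fold. Their Ctrl levels were 19.6 to 28.3, 17.7 to 41.0, 11.9 to 32.3 and 9.84 to 40.5 CPM, and each had 0 counts in the 3 AireEEDdKO libraries. In EEDcKO, which keeps Aire, Sst had 48.8 to 64.4 CPM, whereas A2m had 0 to 1.53 CPM and Cyp1a2 0.315, 1.31 and 25.4 CPM. Over the genes that stayed off, the median change of EEDcKO against Ctrl was −0.44.

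**Figure D2:**
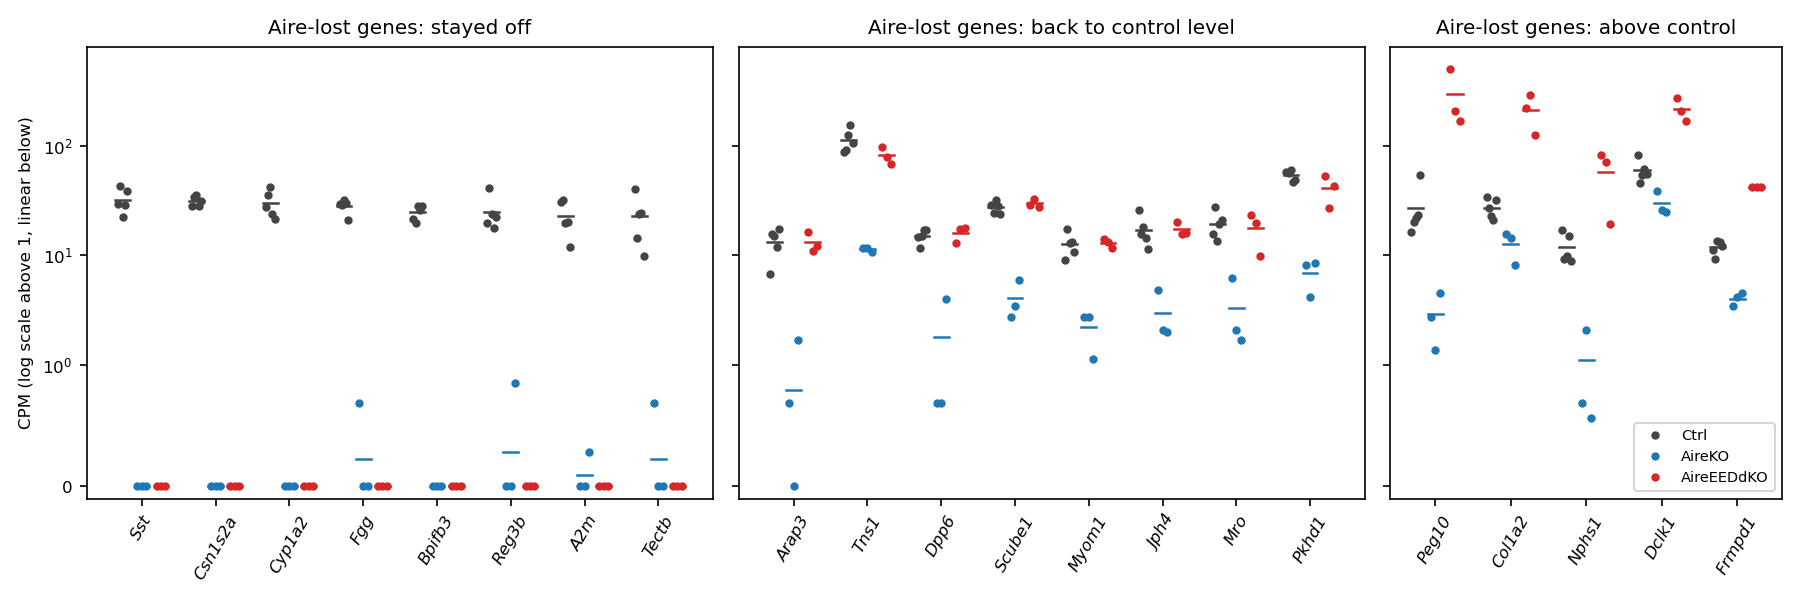
CPM of 21 Aire-lost genes in each library of neonatal Ctrl (5 libraries), AireKO (3) and AireEEDdKO (3), on an axis that is logarithmic above 1 and linear below. Points are libraries and bars are group means; the 8 genes on the left had 0 counts in AireEEDdKO, the 8 in the middle overlapped Ctrl and the 5 on the right were above Ctrl.

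Other genes of the class kept a few counts in the mutants. Cilp, a cartilage matrix protein, had 124 to 168 CPM in Ctrl, 2.06, 4.13 and 0 in AireKO and 4.12, 2.31 and 0 in AireEEDdKO, and fell by 6.35 on the log2 scale against Ctrl (SE 0.80, edgeR adjusted p = 5.20e-06). The neuropeptide gene Nts had 59.6 to 67.6 CPM in Ctrl and 0.589, 2.89 and 2.89 in AireEEDdKO (log2 fold change −4.82, SE 0.41, edgeR adjusted p = 3.98e-08). Nrxn3, a synaptic adhesion molecule, had 26.7 to 45.0 CPM in Ctrl and 1.73 to 1.92 in AireEEDdKO (−4.42, SE 0.47, edgeR adjusted p = 7.36e-07). In these 3 genes no mutant library came near the lowest Ctrl library. Ccdc187 fell by 4.39 on the same scale. Gsdma, a gasdermin of skin and stomach, fell by 4.51, from 32.3 to 50.3 CPM in Ctrl to 1.60, 1.77 and 2.31 in AireEEDdKO, and it had 4.13 to 9.89 CPM in AireKO. Aire itself met the class definition, with 464 to 808 CPM in Ctrl, 44.8, 52.0 and 115 in AireKO and 9.94, 22.4 and 32.3 in AireEEDdKO.

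Tns1, Dpp6, Scube1 and Arap3 had the largest rises over AireKO among protein-coding genes back to control level with at least 10 CPM in Ctrl. Tns1, an actin-binding protein of focal adhesions, had 87.8, 92.4, 125, 154 and 107 CPM in Ctrl, 11.6, 11.7 and 10.7 in AireKO and 98.3, 79.7 and 68.6 in AireEEDdKO. It was higher in AireEEDdKO than in AireKO by 2.86 on the log2 scale (SE 0.28, edgeR adjusted p = 4.32e-07) and −0.48 against Ctrl (SE 0.20, edgeR adjusted p = 0.0705). The AireKO libraries lay apart from the others, and the AireEEDdKO and Ctrl libraries overlapped. Dpp6, an auxiliary subunit of potassium channels, had 14.6, 11.6, 14.9, 16.9 and 16.9 CPM in Ctrl, 0.685, 0.689 and 3.96 in AireKO and 13.0, 17.3 and 17.6 in AireEEDdKO. Scube1, a secreted EGF-domain protein, had 23.7 to 31.9 CPM in Ctrl, 2.74, 3.44 and 5.93 in AireKO and 28.8, 32.9 and 27.9 in AireEEDdKO. Their changes against AireKO were 2.76 and 2.72.

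Arap3, which inactivates small GTPases, had the largest rise over AireKO among these, 3.60 (SE 0.56, edgeR adjusted p = 0.000108), with 6.75 to 17.6 CPM in Ctrl, 0, 0.685 and 1.70 in AireKO and 11.0, 12.2 and 16.5 in AireEEDdKO. Myom1, of the M-band of the sarcomere, Jph4, a junctophilin of neurons, Mro, and Pkhd1, a protein of primary cilia, were each called higher than AireKO, with rises of 2.64 for Jph4, 2.53 for Mro and 2.51 for Pkhd1. All 8 genes overlapped between AireEEDdKO and Ctrl and lay above each AireKO library in each AireEEDdKO library. Zdbf2, an imprinted gene, belonged here as well, with 91.9 to 184 CPM in Ctrl, 41.8 to 54.4 in AireKO and 123, 168 and 128 in AireEEDdKO. Bpifa1, an airway secretory protein, had the same call with an uneven return: AireEEDdKO replicates 1, 2 and 3 had 28.8, 80.9 and 120 CPM, against 70.8 to 97.0 in Ctrl and 11.0 to 34.7 in AireKO.

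The size of this class depends on its definition. In all, 323 of the 1896 genes were called higher than AireKO and not called against Ctrl, 136 with the interval inside 2-fold of Ctrl and 187 with it outside, of which 179 were centred within 2-fold. Mical2 and Epha7 were the last genes inside the limit, with log2 changes against Ctrl of −0.35 (95% interval −0.997 to 0.30) and 0.38 (−0.24 to 0.999), and Olfm1 and Wnt7b the first outside. The class held 156 genes with depth set as a term. Without AireEEDdKO replicate 1 it held 77 and without AireEEDdKO replicate 3 it held 81.

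Peg10 and Col1a2 had the largest rises over Ctrl among protein-coding genes above control with at least 10 CPM in Ctrl. Peg10, an imprinted gene derived from a retrotransposon (chromosome 6, 4747306 to 4760517, GRCm38), had 16.3, 20.2, 21.7, 23.5 and 53.6 CPM in Ctrl, 2.74, 1.38 and 4.52 in AireKO and 507, 208 and 170 in AireEEDdKO. It rose by 3.38 on the log2 scale against Ctrl (SE 0.60, edgeR adjusted p = 0.000196). Each AireEEDdKO library exceeded each Ctrl library, and each AireKO library lay below them. Col1a2, a chain of type I collagen, had 20.9 to 33.8 CPM in Ctrl, 8.19, 14.5 and 15.8 in AireKO and 223, 291 and 127 in AireEEDdKO (2.97, SE 0.23, edgeR adjusted p = 1.16e-08). Dclk1, a kinase used as a tuft cell marker, had 45.6 to 82.7 CPM in Ctrl, 24.9 to 38.4 in AireKO and 274, 208 and 167 in AireEEDdKO, a log2 change of 1.86 against Ctrl.

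Nphs1, the nephrin of kidney podocytes, had 8.90 to 16.9 CPM in Ctrl, 0.565 to 2.07 in AireKO and 83.0, 71.6 and 19.2 in AireEEDdKO (2.26, SE 0.47, edgeR adjusted p = 0.000956). Its rise was not called within the libraries above 2000000 counts, which include the AireEEDdKO library at 19.2 CPM, or among male libraries (0.73 and 1.58). Frmpd1 had 9.24 to 13.5 CPM in Ctrl and 42.0 to 42.4 in the 3 AireEEDdKO libraries. The class as a whole held 19 genes without AireKO replicate 2 and 20 without AireKO replicate 3.

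Partly restored genes were few. Asb4, an adaptor of a ubiquitin ligase (chromosome 6, 5383386 to 5433022), had 9.13 to 24.3 CPM in Ctrl, 0 counts in AireKO and 7.06, 8.67 and 6.42 CPM in AireEEDdKO. Each AireEEDdKO library lay below each Ctrl library and above each AireKO library, but the call against Ctrl (−1.20, edgeR adjusted p = 0.0284) was lost without Ctrl replicate 1 or 2 or any AireEEDdKO library, with values of −1.13, −1.06, −1.17, −1.32 and −1.09. Rab3b, a GTPase of secretory vesicles, had 8.44 to 13.3 CPM in Ctrl, 0 counts in AireKO and 1.18, 4.04 and 1.28 CPM in AireEEDdKO. Greb1, an oestrogen-responsive gene, had 6.79 to 15.8, 0 to 0.689 and 2.94 to 5.13 CPM in the same order. The number of partly restored genes fell to 18 without AireEEDdKO replicate 1, to 22 without replicate 2 or 3 and to 13 without AireKO replicate 3.

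The 576 genes that could not be placed had a median change of −0.70 against Ctrl, −2.13 in AireKO against Ctrl and 1.58 between the mutants, and 187 of them were called higher than AireKO. Bpifb1, an airway secretory protein, is an example. It had 26.7 to 38.9 CPM in Ctrl, 0.685, 1.38 and 1.70 in AireKO and 24.1, 17.9 and 34.6 in AireEEDdKO, but the SE of its change against Ctrl was 0.69. Pdgfra, a receptor of mesenchymal cells, had 2.81 to 11.0 CPM in Ctrl, 0 counts in AireKO and 2.94, 2.89 and 8.98 CPM in AireEEDdKO. In both genes AireEEDdKO overlapped Ctrl and not AireKO. The unplaced class held 380 genes without AireKO replicate 2.

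The classes were next read in libraries outside the comparisons that define them, the mTEClo fraction of EEDcKO against Ctrl, where EED is lost and Aire is intact. These libraries were part of the same fit, so its filter, scaling and estimate of spread used them too. The mTEClo Ctrl libraries were a female and a male of 2 to 3 days and pooled sexes of 1 day. The mTEClo EEDcKO replicates 1 to 4 were of 2 to 3, 1, 6 and 4 days, replicate 3 a female and the others pooled sexes. MHC class II is low in this less mature fraction, and some of its mice may be the same as those of the mTEChi libraries. There, 61 of the 1113 genes that stayed off were called higher (5.48%) and 251 lower (22.6%), where 9.51% of all genes were called higher and 6.22% lower. Of the 136 genes back to control level, 51 were called higher (37.5%) and 2 lower, and of the 33 above control 25 were called higher (75.8%) and 0 lower. The partly restored and unplaced genes had 10 of 38 (26.3%) and 171 of 576 (29.7%) called higher. Median log2 fold changes were −0.65 for genes that stayed off, 0.27 for those partly back, 0.80 for those back to control level and 1.89 for those above control, beside −0.006 over all genes. With RLE size factors or library size alone, the percentages called higher lay between 5.03 and 5.39 for genes that stayed off and between 34.6 and 36.8 for those back.

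In mTEClo AireEEDdKO against Ctrl, where 12.4% of all genes were called higher and 8.2% lower, 55 of the 136 genes back to control level were higher (40.4%) and 2 lower, and of the 1113 that stayed off 28 were higher (2.52%) and 495 lower (44.5%). These AireEEDdKO libraries were a female of 4 days and males of 6 and 4 days. The mTEClo Ctrl libraries were of 1 to 3 days, so age and genotype cannot be told apart.

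Named genes showed both patterns. In mTEClo EEDcKO, Scube1 and Arap3 were called higher by 1.88 and 2.04 on the log2 scale (edgeR adjusted p = 2.19e-05 and 0.00105), and Pkhd1 was called lower at −1.24 (edgeR adjusted p = 0.0106). The other named genes back to control level were not called, with 0.83 for Tns1 and for Dpp6, which passed the test but not the 2-fold limit, 1.14 for Jph4, 0.23 for Myom1 and −0.07 for Mro. Of the genes above control, Col1a2 rose by 3.89 there (edgeR adjusted p = 1.08e-08) and Nphs1 changed by 0.41 (edgeR adjusted p = 0.714). The resting level also differed between the fractions. In Ctrl the genes that stayed off had a median of 9.54 CPM in mTEChi and 3.72 in mTEClo, and those back to control level 16.5 and 17.8, where all genes tested had 17.1 and 16.3.

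**Figure D3:**
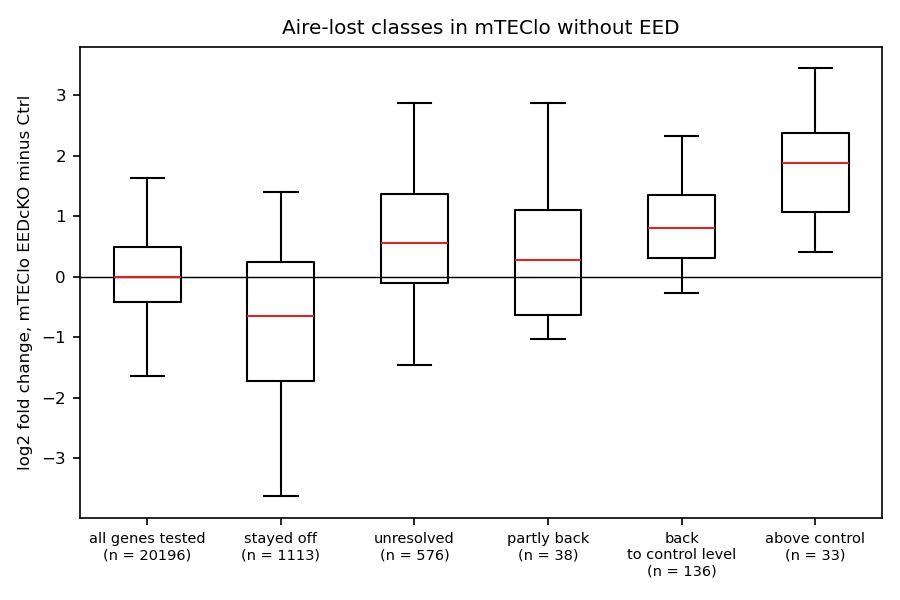
Log2 fold change of EEDcKO against Ctrl in neonatal mTEClo for all 20196 genes tested and for each class of Aire-lost genes. Boxes span the quartiles with the median in red, whiskers reach from the 5th to the 95th percentile; the median is −0.65 for genes that stayed off, 0.80 for genes back to control level and 1.89 for genes above control.

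Adult Aire-lost genes were a minority of the rises, though Zfhx4, Sgce, Peg10 and Rtl1 among the 8 largest named rises belonged to them. Among named rises, Zfhx4, a zinc finger homeobox factor, had 6.75, 2.31, 3.85, 4.75 and 6.09 CPM in Ctrl, 3.43 to 3.67 in AireKO and 102, 88.4 and 101 in AireEEDdKO, a log2 change of 4.32 (SE 0.18, edgeR adjusted p = 1.09e-13). The 3 AireEEDdKO libraries were close to one another and far above Ctrl. Zfhx4 changed by −2.38 in adult AireKO against WT and was not called in neonatal AireKO. Igsf21, an immunoglobulin superfamily member of synapses, had 8.18 to 11.8 CPM in Ctrl and 152, 110 and 65.1 in AireEEDdKO (3.43). Cnr1, the cannabinoid receptor of brain, had 2.75 to 6.93 CPM in Ctrl and 41.8, 39.3 and 60.6 in AireEEDdKO (3.35). Neither differed by a call between AireKO and Ctrl, where the changes were 0.13 and 0.26.

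Adgrg7 and Muc2 were among the 8 largest falls of genes with a mean count above 3 in AireEEDdKO, and neither was called lower in neonatal AireKO. Adgrg7, an adhesion receptor of gut, had 40.5 to 51.8 CPM in Ctrl, 41.2, 63.7 and 104 in AireKO, and 5.89, 1.16 and 1.28 in AireEEDdKO, and fell by 4.21 on the log2 scale against Ctrl (SE 0.63, edgeR adjusted p = 3.76e-05). EEDcKO had 5.57, 0.875 and 4.09 CPM. Both groups without EED were low and AireKO was not. Muc2, the intestinal mucin, fell by 5.35, from 66.4 to 120 CPM in Ctrl to 0.589, 3.47 and 2.25 in AireEEDdKO. AireKO was split, with 180 CPM in replicate 1 and 2.07 and 0.565 in replicates 2 and 3. In adult mTEChi Muc2 was called lower in AireKO than in WT (−9.65).

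PRC2 subunits were measured next, as the complex that the deletion targets. Eed had 38.8, 35.8, 27.0, 23.5 and 20.4 CPM in Ctrl and 17.1, 11.6 and 12.2 in AireEEDdKO (log2 fold change −1.08, SE 0.23, edgeR adjusted p = 0.00102). No libraries overlapped, and the change was close to the 2-fold limit: without Ctrl replicate 1 or 2 or AireEEDdKO replicate 2 or 3 it was −0.95, −0.996, −0.98 and −0.99 and no longer called. Of the 12 subunits tested, 2 were called higher and 1 lower, or 1 and 2 with library size alone, so few that the counts are no result about the list. The catalytic subunit Ezh2 had 71.7 to 93.9 CPM in Ctrl and 38.9 to 48.8 in AireEEDdKO, a fall of 0.88 that passed the test but not the 2-fold limit (edgeR adjusted p = 0.000249). It was called lower under 4 of 22 alternatives, among them library size alone, and its values ran from −1.29 to −0.64. The histone-binding subunit Rbbp7 changed by −0.66 and Rbbp4 by −0.28 (edgeR adjusted p = 0.000755 and 0.0444), Suz12 by −0.26 and Ezh1 by −0.23 (edgeR adjusted p = 0.152 and 0.335).

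The accessory subunits moved both ways. Aebp2 and Mtf2 changed by −0.53 and −0.47, and Jarid2, which recruits the complex, by 0.58 (edgeR adjusted p = 0.00456, 0.0132 and 0.00195), none by 2-fold. Jarid2 was also higher in AireKO by 0.72, with 528 to 583 CPM beside 317 to 356 in Ctrl and 427 to 599 in AireEEDdKO. Epop, which links the complex to elongin, rose from 2.75 to 6.93 CPM in Ctrl to 8.98 to 19.4 in AireEEDdKO (1.49, edgeR adjusted p = 0.00577). The call was lost under 4 of 22 alternatives, with values from 0.83 to 1.76 over all 22. Among the 4 were male libraries only, Ctrl libraries of 6 days only and leaving out AireEEDdKO replicate 1 (1.19). Phf1 was called at 1.06 (edgeR adjusted p = 0.0143), a call lost under 12 of 21 alternatives, among them library size alone (0.89) and leaving out Ctrl replicate 1 or 3 or AireEEDdKO replicate 3 (0.99, 0.90 and 0.72). Phf19 changed by −0.14 (edgeR adjusted p = 0.664).

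Some imprinted genes, which are expressed from 1 parental allele, rose. Of 24 tested, 11 were called higher, where 6.88% of all genes were, and 0 lower, or 11 and 1 with library size alone, with a median log2 change of 0.96 beside 0.04 over all genes. In AireKO against Ctrl, 0 were called higher and 5 lower, where 3.56% and 12.8% of all genes were. The noncoding RNA Meg3 (chromosome 12, 109541001 to 109571726) had 13.5, 12.1, 15.4, 7.39 and 18.0 CPM in Ctrl, 15.1, 4.82 and 12.1 in AireKO and 541, 307 and 242 in AireEEDdKO (4.75, SE 0.29, edgeR adjusted p = 3.07e-10). Rian and Mirg, transcribed from the same locus, rose by 3.74 and 3.36. Of the neighbouring coding genes, Rtl1 had 4.50 to 9.84 CPM in Ctrl and 124, 53.7 and 38.5 in AireEEDdKO (3.21), and Dlk1, a Notch ligand homologue, 17.6 to 29.5 and 117, 54.3 and 46.2 (1.65). Replicate 1 of AireEEDdKO, from pooled sexes at 4 days, was the highest library for Meg3, Rtl1 and Dlk1.

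Reads at these genes were counted without strand, so Rtl1 and its antisense transcripts cannot be told apart, nor can Airn and Igf2r. On chromosome 6, Sgce, a sarcoglycan, rose by 3.62, from 0 to 6.07 CPM in Ctrl to 31.4 to 41.2 in AireEEDdKO, next to Peg10. Outside these loci, H19 was called higher by 1.19, Ndn by 1.66, Airn by 1.52 and the growth-restraining Cdkn1c by 2.02, whereas Zdbf2, Grb10 and Usp29 had changes of −0.02, 0.02 and 0.06. Dio3 of the chromosome 12 locus had 0 counts in both mutants.

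**Figure D4:**
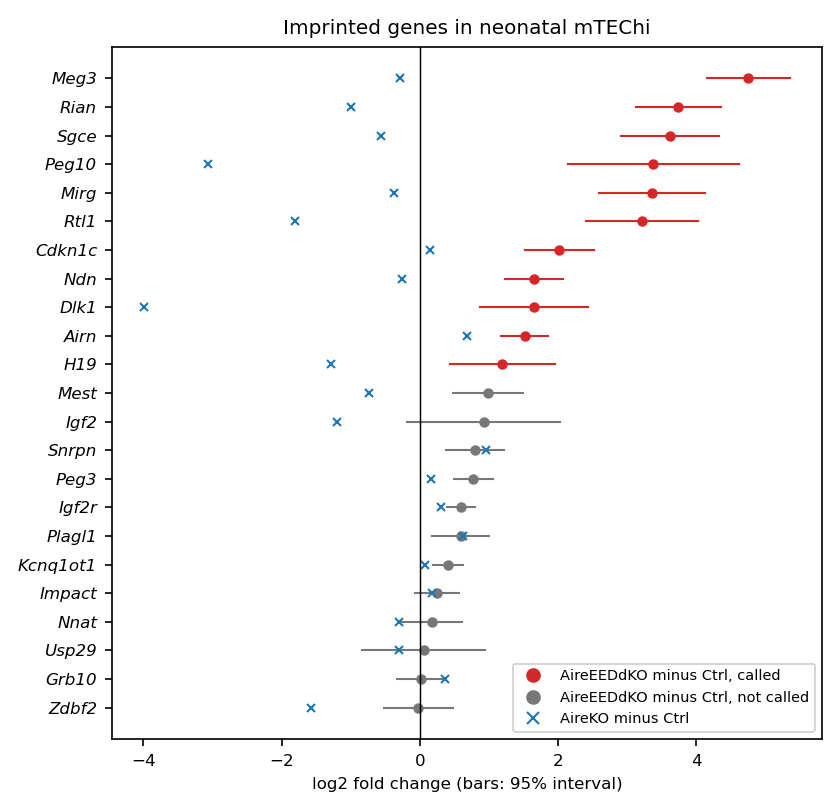
Log2 fold change of 23 imprinted genes in neonatal mTEChi, AireEEDdKO against Ctrl as circles with 95% intervals (red where called) and AireKO against Ctrl as crosses. The 11 called genes run from 1.19 in H19 to 4.75 in Meg3; Dio3, at 0 counts in both mutants, is left out.

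Developmental regulators, the class most often marked by PRC2, split. Of 39 tested in a list of 50, 10 were called higher and 7 lower, beside 6.88% and 9.94% of all genes. The median was 0.56. Among male libraries the counts were 4 and 5, and within the libraries above 2000000 counts, with AireEEDdKO replicate 3 alone, the median was −0.06. Ebf1, a factor of mesenchyme and B cells, had 51.8 to 64.2 CPM in Ctrl and 149 to 182 in AireEEDdKO (1.50, SE 0.12, edgeR adjusted p = 1.55e-08). Zic1 rose from 0.468 to 1.69 CPM in Ctrl to 13.5, 23.1 and 7.38 in AireEEDdKO (4.19), and Prrx1 from 1.87 to 3.94 to 4.71, 12.1 and 35.3 (2.71). Pax3, a factor of neural crest and muscle precursors, was above control with 5.15 to 10.7 CPM in Ctrl, 0 to 1.37 in AireKO and 21.2, 20.8 and 11.5 in AireEEDdKO. Its paralogue Pax7 stayed off, with 16.9 to 32.9 CPM in Ctrl, 1.38 to 4.80 in AireKO and 0.578 to 0.642 in AireEEDdKO (−5.12, edgeR adjusted p = 1.21e-06). Gata4 and Hand1, factors of the heart, also stayed off, with 25.6 and 20.8 CPM on average in Ctrl and 1.81 and 0.193 in AireEEDdKO.

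Of the 39 Hox genes, 25 were tested. Beside 6.88% and 9.94% of all genes, 4 were called higher and 5 lower, or 4 and 8 with library size alone. The higher ones were Hoxc4, Hoxc5, Hoxc6 and Hoxa9, with changes of 2.19, 1.71, 1.39 and 1.87. Hoxc4 had 2.11 to 4.68 CPM in Ctrl, 2.07 to 3.11 in AireKO and 19.4, 14.4 and 12.5 in AireEEDdKO. The lower ones included Hoxb9, which was partly back with 11.8 to 20.2 CPM in Ctrl, 0 to 1.38 in AireKO and 7.65, 4.04 and 2.25 in AireEEDdKO, and Hoxc13, which had 0 counts in AireEEDdKO and 4.48 CPM on average in Ctrl. In AireKO against Ctrl, 0 Hox genes were called higher and 13 lower, where 3.56% and 12.8% of all genes were.

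Antigens that textbooks give as Aire-dependent stayed off in most cases. Of 19 tested, 14 were called lower, where 9.94% of all genes were, and 0 higher. All 14 belonged to the class that stayed off. The list was drawn up for its dependence on Aire. Ins2, one of the mouse insulin genes, had 5.39 to 9.56 CPM in Ctrl and 0 counts in both mutants (at least 16.5-fold lower in AireEEDdKO). Fabp2, a fatty acid carrier of gut, had 9.84 to 15.2 CPM in Ctrl and 0 in AireEEDdKO. Csn2, the beta-casein, was not called and had 292 to 440 CPM in Ctrl, 351 to 753 in AireKO and 243 to 514 in AireEEDdKO. Of 10 milk and salivary protein genes, 8 were called lower, and of 16 eye and brain antigens 5 were, or 8 with library size alone. Mbp, a myelin protein, was not called and had 134 CPM on average in Ctrl and 132 in AireEEDdKO.

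Of 15 liver plasma protein genes, 11 were called lower, where 9.94% of all genes were. Alb, serum albumin, had a mean of 28.7 CPM in Ctrl, 0.283 to 0.689 in AireKO and 2.35, 1.16 and 0.321 in AireEEDdKO (−4.64, SE 0.82, edgeR adjusted p = 0.0002). Apoa1, an apolipoprotein, was lower in AireEEDdKO than in both other groups, with 15.2 to 38.1 CPM in Ctrl, 11.0 to 23.3 in AireKO and 1.16, 2.94 and 4.17 in AireEEDdKO. The 3 liver genes called lower than AireKO were Apoa1, Apoc3 and Ttr, with changes of −2.38, −2.57 and −3.18.

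Enterocyte genes, a list that also holds Apoa1, included others lower than in both other groups. Of 13 tested, 10 were called lower than Ctrl, with a median of −3.04, 6 lower than AireKO, and 4 lower in AireKO than in Ctrl. The shares over all genes were 9.94%, 2.78% and 12.8%. Lypd8, which keeps gut bacteria from the epithelium, had 94.5, 91.3, 78.7, 59.7 and 69.8 CPM in Ctrl, 178, 174 and 100 in AireKO and 14.7, 4.62 and 4.81 in AireEEDdKO. Its log2 change was −3.35 against Ctrl and −4.29 against AireKO (SE 0.45 for the first, edgeR adjusted p = 1.14e-05 and 2.37e-06). Vil1, the villin of microvilli, had 44.5 to 61.9 CPM in Ctrl, 30.8 to 40.6 in AireKO and 9.82 to 14.4 in AireEEDdKO, and Hnf4a, a regulator of gut and liver genes, 5.06 to 14.8, 1.37 to 2.75 and 0.578 to 1.28. The AireEEDdKO libraries did not overlap the other groups in Lypd8 or Vil1.

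The other mimetic lists differed in direction. Muscle genes had 6 of 13 called higher and 1 lower, and 8 called higher than AireKO. The shares over all genes were 6.88%, 9.94% and 6.69%. Des, the desmin of muscle filaments, had 12.1 to 23.7 CPM in Ctrl, 17.9, 29.4 and 54.1 in AireKO and 162, 169 and 213 in AireEEDdKO (3.34, SE 0.31, edgeR adjusted p = 1.21e-07). Actc1, a cardiac actin, had 13.9 to 24.2, 0.283 to 5.48 and 33.4 to 101 CPM, and Ryr1, the calcium release channel, 9.82 to 35.4, 1.38 to 8.22 and 50.3 to 77.1. Both were above control and had been lost in AireKO. Myot, a protein of the sarcomere, followed another order, with 9.24 to 17.3 CPM in Ctrl, 66.7 to 80.8 in AireKO and 56.8, 158 and 173 in AireEEDdKO. Myh3, an embryonic myosin, was lower than Ctrl (−2.25) and partly back. Within the libraries above 2000000 counts 2 muscle genes were called higher, and within those below 5.

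Ciliated cell genes had 8 of 12 called lower and 0 higher, where 9.94% and 6.88% of all genes were. Mcidas and Trp73, which start the programme of multiciliated cells, stayed off, with 21.1 to 35.4 and 12.9 to 16.9 CPM in Ctrl and 0 to 1.28 and 1.18 to 2.89 in AireEEDdKO. Foxj1, a master factor of motile cilia, had 18.1 CPM on average in Ctrl and 28.1 in AireEEDdKO (edgeR adjusted p = 0.112). Keratinocyte genes had 5 of 12 called lower, or 7 with library size alone. Among the 5 were Lor, the cornified envelope protein loricrin (−5.20), and Krt1 (−2.96). Goblet genes had 4 of 9 called lower, led by the mucin Muc5ac, with 275 to 325 CPM in Ctrl, 2.74 to 13.0 in AireKO and 5.89, 2.89 and 39.5 in AireEEDdKO.

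Tuft genes had 5 of 11 called lower and 1 higher, the latter being Dclk1. Pou2f3, the factor that specifies tuft cells, fell by 1.97, so the rise of Dclk1 was not shared by that factor. Endocrine genes had 5 of 12 called lower, ionocyte genes 2 of 7, and microfold genes 1 of 9 lower and 1 higher, near the all-gene percentages of 9.94 and 6.88, the latter being Sox8 (1.10), which was not called with library size alone.

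**Figure D5:**
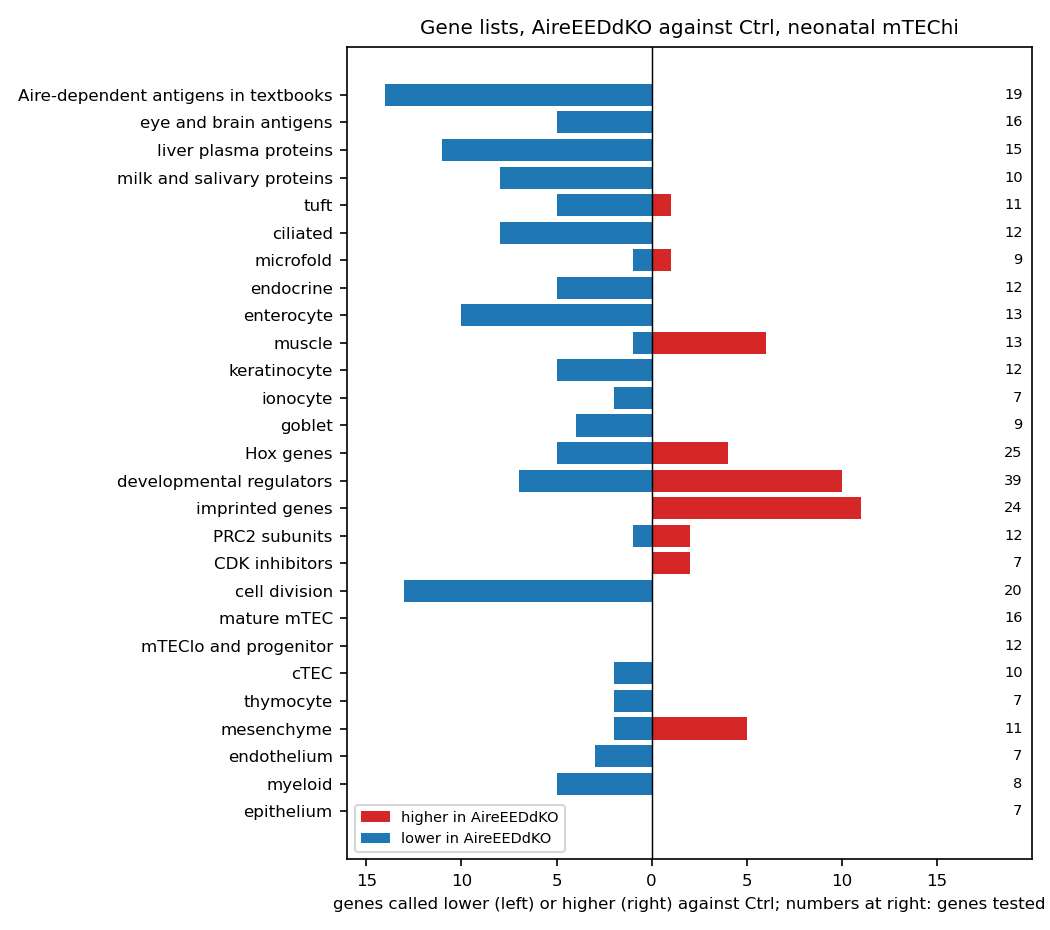
Number of genes called lower (left, blue) and higher (right, red) in AireEEDdKO against Ctrl in each gene list, with the number tested at the right. Muscle, imprinted, mesenchyme and developmental regulator lists hold the most higher calls, and the textbook antigen, cell division, liver and enterocyte lists the most lower calls. Over all genes tested, 9.94% were called lower and 6.88% higher.

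Most cell division genes were called lower in AireEEDdKO. Of 20 tested, 13 were called lower, where 9.94% of all genes were, and 0 higher, with a median of −1.35. Mki67, the marker of cycling cells, had 542, 542, 386, 443 and 370 CPM in Ctrl, 576, 693 and 663 in AireKO and 99.5, 93.0 and 241 in AireEEDdKO (−1.64, SE 0.27, edgeR adjusted p = 9.08e-05). Each AireEEDdKO library lay below each Ctrl library, and replicate 3 was closest to Ctrl. Within the libraries below 2000000 counts 15 of the 20 were called lower, and within those above, which hold AireEEDdKO replicate 3 alone for this group, 5 were. Of 7 CDK inhibitors, Cdkn1c and Cdkn2a were called higher, where 6.88% of all genes were. Within the libraries below 2000000 counts 1 of the 7 was. Cdkn2a had 2.11 to 6.19 CPM in Ctrl and 10.0, 10.4 and 11.2 in AireEEDdKO (1.46, edgeR adjusted p = 0.00241).

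Genes of other cell types in or near the gate moved as well. Mesenchymal genes summed to 659 to 720 CPM in Ctrl, 516 to 591 in AireKO and 979 to 1390 in AireEEDdKO, with Col1a2, Col5a1, Dcn, Lum and Thy1 called higher and Col1a1 and Col6a3 lower. The median over the list was −0.73 within the libraries below 2000000 counts and 1.11 within those above, which hold AireEEDdKO replicate 3 alone for this group. Dcn, a matrix proteoglycan, had 51.7 to 77.7 CPM in Ctrl, 164 to 241 in AireKO and 188 to 351 in AireEEDdKO. Col1a1, the partner chain of Col1a2, had 69.7 to 109 CPM in Ctrl, 0 to 1.38 in AireKO and 4.17 to 7.65 in AireEEDdKO. It was placed in the class that stayed off, though each AireEEDdKO library lay above each AireKO library. The chains of type I collagen went opposite ways against Ctrl, and the part of mesenchymal cells in the rises was not tested.

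Endothelial genes summed to 100 to 138 CPM in Ctrl and 49.1 to 62.4 in AireEEDdKO. Of 7, 3 were called lower, or 5 with library size alone, where 9.94% of all genes were in the main fit. Thymocyte genes summed to 95.7 to 118 and 64.2 to 69.9, with 2 of 7 called lower, and myeloid genes to 315 to 364 and 267 to 439, with 5 of 8 called lower. Adgre1, the macrophage gene for F4/80, stayed off with 26.6 to 63.8 CPM in Ctrl, 3.43 to 3.67 in AireKO and 2.35 to 2.89 in AireEEDdKO, whereas Lyz2 had 166 to 194 and 204 to 347 CPM in Ctrl and AireEEDdKO (edgeR adjusted p = 0.208). Of 10 cTEC genes, Prss16 and Cxcl12 were called lower, but Prss16 overlapped, with 39.3 to 230 CPM in Ctrl and 31.2 to 44.7 in AireEEDdKO. Genes of mTEClo and progenitors summed to 1773 to 1881 CPM in Ctrl, 1979 to 2446 in AireKO and 2392 to 2470 in AireEEDdKO, which did not overlap Ctrl, with 0 of 12 called in either direction. The part of these cell types in the classes above was not tested.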

How the data were processed

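mTECs were sorted from neonatal and adult thymi, and full-length total RNA libraries were made by RamDA-seq. The authors deposited raw counts per gene. Per the submitters' processing notes, reads were processed with fastp 0.20.0, STAR 2.7.3a, SAMtools 1.9, Picard 2.21.1 and HTSeq 0.11.2 on mm10/GRCm38, with duplicates removed, and counting did not use strand. All 24 neonatal libraries were fitted together in edgeR 4.0.16 (R 4.3.3, limma 3.58.1) with filterByExpr, TMM factors, the quasi-likelihood F-test and Benjamini-Hochberg adjustment, which left 20196 of 55471 genes, and the 23 adult libraries were fitted apart. The fit was tested on simulated data. CPM used effective library sizes. The members and lists were chosen with earlier results of these data known. Named genes were Aire, Eed and PRC2 subunits, then the 8 largest rises and 8 largest falls among called protein-coding genes with a symbol, no overlap between groups, a higher group at 10 CPM or more and a lower group averaging over 3 counts. In each class, they were the protein-coding genes of at least 10 CPM in Ctrl with the largest change (8 back and 3 partly back by rise over AireKO, 8 stayed off and 5 above by change against Ctrl). List genes were named as examples after their values were seen. Deviations of same-numbered AireEEDdKO and AireKO libraries correlated weakly, at 0.108, 0.143 and 0.213, but each matched its own number best. Against Ctrl the values were −0.05, 0.14 and −0.0044, and replicates 2 and 3 still matched their own number best. The main fit used no pairing. The replicate block also blocked Ctrl and EEDcKO by number, so a pairing of the mutants alone was not tested. Alternatives were other normalizations, filters, fold limits, tools (DESeq2 1.42.0), sample subsets, covariates and left-out libraries. Floors cover counting error only, whereas the 95% intervals of fold changes come from the fitted SE and include the spread between libraries.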

Additional observations from a re-analysis of the deposited data

Results flagged for a closer look

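The change of AireEEDdKO against Ctrl differed between mTEChi and mTEClo for 1306 genes by an interaction term in edgeR (6.47% of those tested), 898 of them lower in mTEChi and 408 higher. The gene classes were defined on the mTEChi side of this difference, so their shares are not given as a result.

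In 4 of 51 named genes, 1 of the 5 Ctrl libraries stood apart from the rest by Dixon's criterion (critical value 0.71), which flags about 1 in 20 groups by chance. Peg10 was highest in Ctrl replicate 5, at 53.6 CPM against 16.3 to 23.5 in the others. Nrxn3 was lowest in Ctrl replicate 5, at 26.7 CPM against 41.6 to 45.0. Fgg was lowest in the same library, at 21.1 CPM against 28.9 to 31.9. Reg3b was highest in Ctrl replicate 2, at 41.0 CPM against 17.7 to 23.7.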

How the results depend on the processing

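Among 51 named genes, 1120 values under alternatives held 1040 rated the same, 30 that lost the call, 5 that gained it, 45 that moved by more than the Ctrl spread and 0 that reversed. For a called gene, same means the same call and direction. For an uncalled gene it means no call and a shift within the Ctrl spread, whatever the sign. Reversal was rated for called genes only. Of the 17 named genes that were not called, 8 had values on both sides of 0. The cause of the shifts given here was not tested, apart from those set by fewer libraries or another definition.

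The partly restored class held 58 genes with library size alone, 63 with the 4 mTEChi groups only, 61 with DESeq2 and 71 with depth set as a term. Male libraries only gave 1187 genes for AireEEDdKO against AireKO, 2158 for AireKO against Ctrl, and 24 partly back, 70 back and 18 above control. Ctrl libraries of 6 days only gave 1658 genes for AireKO against Ctrl, and 639 stayed off, 24 partly back, 49 back, 10 above control and 382 unplaced. No minimum fold change gave 6244 genes for AireEEDdKO against Ctrl, 3400 against AireKO and 5816 for AireKO against Ctrl, with 58 partly back and 69 above control. At least 4-fold gave 1412, 659 and 1720, with 7 partly back, 35 back and 2 above control. An adult set at 4-fold gave 51 back, 15 above control and 347 unplaced, and the neonatal AireKO call alone 213, 54 and 945. Without the 1343 genes that differed between adult library kinds, 590 stayed off, 24 were partly back and 16 above control. An interval within 1.5-fold left 19 genes back, and no interval 323. With no filter on low counts, 6565 adult genes were lower. Within the libraries under 2000000 counts, AireKO against Ctrl gave 2062 genes, with 79 back, 17 above control and 372 unplaced. Within those over 2000000, with 1 AireEEDdKO and 1 AireKO library, AireEEDdKO against AireKO gave 920 genes, with 7 partly back and 52 back.

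Leaving out 1 library gave 918 to 1077 genes that stayed off, 13 to 41 partly back, 77 to 123 back, 19 to 36 above control and 380 to 814 unplaced. The comparisons ranged over 2879 to 3319 genes for AireEEDdKO against Ctrl, 1406 to 1785 against AireKO, 2551 to 3313 for AireKO against Ctrl and 3517 to 3643 for the adult set, where only the 4 AireKO libraries were left out in turn. With the replicate block, AireEEDdKO against Ctrl gave 2866 genes, AireEEDdKO against AireKO 1816 and AireKO against Ctrl 2440, with 995 genes that stayed off, 54 partly back, 97 back, 26 above control and 461 unplaced, and 3045 lower in the adult set. None of the replicate-block counts moved by over 1.5 times. Of the leave-one-out counts, the lowest for partly back, back, above control and unplaced did, beside 38, 136, 33 and 576 in the main fit. At 3 libraries a group, genes near the detection floor had wide intervals, with a median 95% width of 2.84 on the log2 scale for genes that stayed off, beside 1.13 over all genes tested.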
